A study of Mus musculus with 21 samples.

Results

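Chromosome 15 carries Myc in the mouse, and its copy number was followed here in 21 liver tumours with 3758 array probes, which were 3.89% of the 96579 probes of the arrays. The members were all probes other than controls whose position lay on chromosome 15 in the mm9 build, and the chromosome was chosen by its measured levels in these tumours. Its whole level and the excess around Myc are therefore given as descriptions without a test, and tests were kept for the difference between the treatment groups. The region around Myc was the 5 Mb on either side of the middle of the probe named Myc and held 323 of the probes, with 3435 in the rest of the chromosome.

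The method, array comparative genomic hybridization, labels tumour DNA and reference DNA with different dyes and hybridizes both to the same probes, so that each probe reports tumour copies relative to the reference. Of the tumours, 12 came from 7 C57BL/6 mice fed CD-HFD for 12 months, with 8 weeks of anti-PD1 after that. The other 9 came from 7 C57BL/6 mice that had CD-HFD for 12 months without the antibody. CD-HFD is a choline-deficient high-fat diet that causes steatohepatitis, and anti-PD1 is an antibody that blocks the inhibitory receptor PD1 of T cells. No tumour came from a mouse on normal diet, so the diet was common to both groups. The DNA was taken from sections of fixed, paraffin-embedded tissue, and other cells of a section count in each value. The reference was a pool that the labels name as liver tails of the same strain. Mice were read from the leading number of the sample names, and lesions of 1 mouse are not independent of each other: 3 anti-PD1 mice and 2 CD-HFD mice had several tumours. Where a mouse had 1 tumour, nothing in the labels says more about how samples were taken, and the spread between mice may in part be technical.

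The tumours lay on 3 slides. Slide 1 had 1 array design with 2121 chromosome 15 probes, and slides 2 and 3 had another with 2160, of which 523 were on both. On the first design neighbouring probes were a median of 36.4 kb apart, and on the second 17.9 kb. Of all chromosome 15 probes, 48.4% lay in introns, 27.5% between genes, 12.1% in coding exons and 10.1% in UTRs. The noise of single probes ranged from 0.41 to 0.68 (SD of the log2 ratio) between arrays, and the share of spots well above background in the tumour channel had a median of 96.5%, with the lowest share, 65.0%, in 608 lesion 1. Precision is set by how few arrays there were.

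Myc is a transcription factor that drives cell growth, ribosome production and metabolism. It binds DNA with its partner Max, while the Mxd proteins and Mnt compete for Max and oppose it. Extra copies of the chromosome arm that carries MYC are common in human liver cancer, and chromosome 15, which holds the mouse counterparts of many of its genes, is often gained as a whole in mouse tumours.

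The probes that mark the positions on which the results turn are printed below from 5′ to 3′. Their positions are those of mm9, and all matched the plus strand of the mouse genome build GRCm38. G and C are in capitals, because the base composition of a probe and of its surroundings moved with the measured ratio. The first lies in an intron of Myc and was the one probe named for it. The next 2 are the nearest probes of both array designs on either side, in introns of Fam84b and of Pvt1, the long non-coding RNA next to Myc. The last 2 lie between genes, before and after the position where the profile stepped down in most tumours. These 4 were chosen after their values had been seen.
Myc, chr15:61818043-61818102: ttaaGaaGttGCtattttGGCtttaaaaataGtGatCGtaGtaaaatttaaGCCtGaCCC
Before Myc, chr15:60657685-60657742: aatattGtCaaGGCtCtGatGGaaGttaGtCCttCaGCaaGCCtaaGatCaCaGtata
After Myc, chr15:62030387-62030446: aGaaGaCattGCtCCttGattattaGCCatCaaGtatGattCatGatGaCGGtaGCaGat
Before the step, chr15:70533452-70533511: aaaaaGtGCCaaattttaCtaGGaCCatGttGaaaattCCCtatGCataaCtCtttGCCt
After the step, chr15:73508355-73508413: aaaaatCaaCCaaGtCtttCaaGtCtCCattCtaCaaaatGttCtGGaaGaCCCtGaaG
The G and C content of these probes was 31.7%, 39.7%, 38.3%, 35% and 37.3% in this order, and that of the 50 kb around them 44.4%, 44.0%, 44.8%, 37.2% and 50.2%. The last pair differed far more in their surroundings than in the probes themselves.

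Chromosome 15 was raised over its whole length in a minority of the tumours, in both treatment groups, and lowered in none. The level is the mean log2 ratio of tumour over reference of its probes, centred on the median of the array, so a value of 0 stands for the typical probe of that tumour, whatever its true copy number. In 3 of 21 tumours it reached the threshold of 0.2. Across the 19 autosomes of the 21 tumours, 5.01% of 399 levels did so. The highest level was 0.39 in 2064 lesion 1, a CD-HFD tumour. The lesions 1 and 6 of anti-PD1 mouse 608 had 0.38 each. These 3 tumours stood apart from the rest, since the next was lower by 0.23.

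The next tumours in order differed by no more than the noise of a level, whose standard error from the scatter of single probes was 0.0088 to 0.015 in every tumour. The CD-HFD tumour 2088 lesion 1 and the anti-PD1 tumours 608 lesion 3 and 612 lesion 2 all had 0.15. A gap of 0.11 separated them from the other 15 tumours, which ranged from −0.08 to 0.042 without a clear gap between neighbours. The lowest of these was 1109, an anti-PD1 tumour. For comparison, 3 copies in place of 2 in every cell would give a log2 ratio of 0.58 on an array without signal compression. The share of cells with the gain and the compression of the ratio cannot be told apart here.

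Many arrays also followed base composition. The log2 ratio fell with the G and C content of the 50 kb around a probe in 19 of 21 arrays, and the chromosome and window levels are therefore also given after a linear correction for the G and C content of the probe and of these 50 kb ("GC-corrected"). After it, 2064 lesion 1 had 0.41, 608 lesion 6 had 0.40 and 608 lesion 1 had 0.37. The second set followed at 0.20 in 608 lesion 3, 0.18 in 2088 lesion 1 and 0.17 in 612 lesion 2. The other 15 tumours ranged from −0.022 in 1109 to 0.068 in 2064 lesion 2.

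The order was thus kept at its upper end, with the same 6 tumours above the other 15. The correction brought 1 more tumour over the threshold: 608 lesion 3 was just inside it at 0.204 and 2088 lesion 1 just outside at 0.176, and GC-corrected levels at or above 0.2 made up 4.51% of the 399. Among the 19 autosomes of its own tumour, chromosome 15 had the highest GC-corrected level in lesions 1 and 6 of mouse 608, and at only 0.059 in 2094 lesion 1, and the next highest in 608 lesion 3 and in 2064 lesion 1. Its SD over the 21 tumours was the largest of all autosomes as processed (0.15) and the second largest after GC correction (0.14). As processed the same 3 were counted at a threshold of 0.3 and 6 at 0.1, while after GC correction the value of 0.2 ran through the second set. With normexp background correction, which draws ratios towards 0, 1 tumour reached 0.2.

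**Figure D1:**
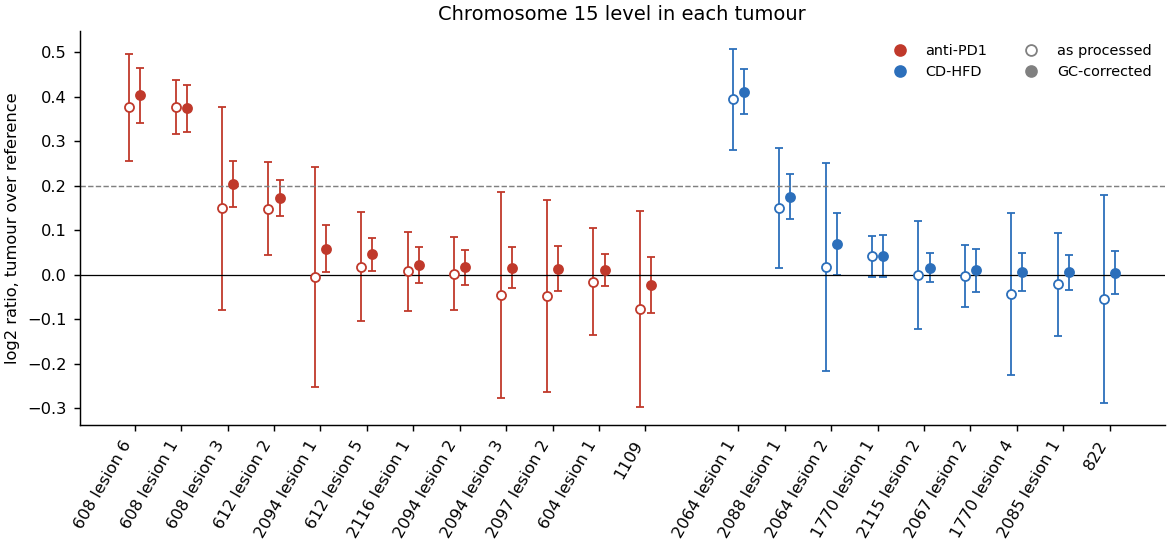
Chromosome 15 level of each of the 21 tumours (log2 ratio of tumour over reference, y axis), as processed in open circles and GC-corrected in filled circles, coloured by treatment group, with error bars of 1 SD over the 10 Mb windows of the chromosome. 3 tumours lie between 0.37 and 0.41 after correction, 3 between 0.17 and 0.20, and the other 15 near 0, with both groups in each set.

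The raised tumours were raised from end to end. The chromosome was divided into 11 windows of 10 Mb, the seventh being the Myc region. After GC correction every window was above 0 in 6 of 21 tumours. In 2064 lesion 1 the windows ranged from 0.32 to 0.48. In 608 lesion 6 they ranged from 0.27 to 0.49, and in 608 lesion 1 from 0.31 to 0.48.

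At intermediate levels the profile was as even. The windows ranged from 0.13 to 0.30 in 608 lesion 3, from 0.091 to 0.25 in 2088 lesion 1 and from 0.13 to 0.24 in 612 lesion 2. No window of the other 15 tumours was above 0.18. The SD over the windows of a tumour was 0.033 to 0.070 after GC correction, against 0.047 to 0.25 as processed.

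**Figure D2:**
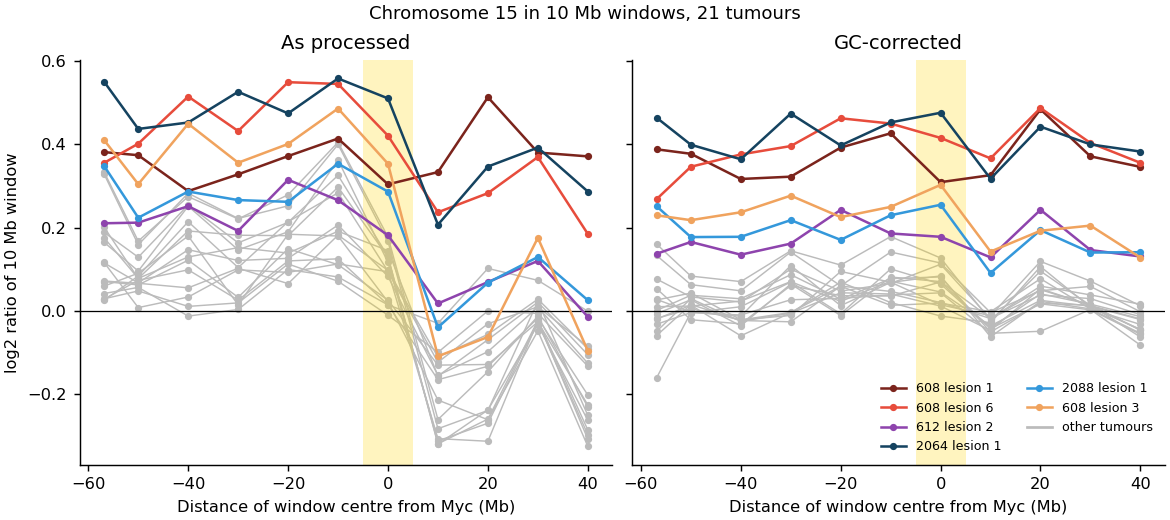
Level of each 10 Mb window of chromosome 15 (log2 ratio, y axis) against the distance of its centre from Myc in Mb (x axis), as processed and GC-corrected, 1 line for each tumour, with the 6 tumours of the highest level coloured and the Myc region shaded. As processed, the median window falls from 0.28 just before the Myc region to −0.13 just after it, and after GC correction the lines run nearly flat.

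As processed, most tumours had a step in this profile. Segmentation, which divides a chromosome into stretches of equal level, gave more than 1 segment in 18 of 21 tumours. In every one of them the first segment ended between positions 71512917 and 73320347, a span of 1.81 Mb that begins 9.69 Mb beyond Myc. The level before this position exceeded the level after it by a median of 0.23, with a range of −0.07 to 0.47 and a value above 0 in 19 tumours. The step was present in raised and unraised tumours alike.

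The surroundings of the probes changed at the same position. The 50 kb around a probe held 41.0% G and C before the step and 47.6% after it, while the probes themselves held 36.2% and 37.4%. After GC correction the step had a median of 0.038 (range −0.038 to 0.10), and all 21 tumours had 1 segment. Of the 2 probes printed for this position, the one before the step had a median of 0.21 and the one after it −0.11 as processed. Their GC-corrected medians of 0.01 and 0.11 were in the opposite order, while the GC-corrected step of the chromosome stayed above 0 in 17 tumours. No break lay within 5 Mb of Myc in any tumour, with or without the correction.

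The same step decided how much of the chromosome counted as gained, that is, lay in a segment with a mean of at least 0.2. As processed, 3 tumours were gained over all their probes and 5 over a part of 46.9% to 57.0%, in each of which the part held Myc. After GC correction 4 tumours (lesions 1, 3 and 6 of mouse 608, and 2064 lesion 1) were gained over all probes, and 17 over none. Taken over all tumours, 26.2% of the chromosome 15 probe values lay in gained segments as processed, against 9.61% of those of all autosomes. Chromosome 15 was second to chromosome 1, with 28.7%, and ahead of chromosome 16, with 22.0%. These shares were not computed after GC correction, and they count 47.0% of 2094 lesion 1, whose level was −0.0047. Segments beyond the step also counted as lost in some tumours, with a mean 0.2 or more below 0. They held 46.7% of the probes in 1109, the largest share, and 13.2% in 608 lesion 3. After GC correction the lowest segment mean was −0.022, in 1109.

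Over the 5 Mb on either side of Myc the mean ratio was slightly above the rest of the chromosome. The amount depended on the array design, and its sign turned when the region was narrowed. The excess is the mean of the 5 Mb on either side of Myc minus the mean of the rest of chromosome 15. Averaged over mice it was 0.10 ± 0.067 (SD, n = 14), and it was above 0 in 18 of 21 tumours. After GC correction it was 0.039 ± 0.035 (SD, n = 14). Many windows elsewhere had as much: of 263 windows of 10 Mb on chromosomes 1 to 19 and X, each set against the rest of its own chromosome, 56 (21.3%) had a higher mean than the Myc region, 5 of them on chromosome 15 itself. After GC correction 35 windows (13.3%) were higher, 1 of them on chromosome 15.

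The excess followed the slide. On slide 1 it ranged from −0.08 to 0.071 with a median of 0.038. On slides 2 and 3, with the other design, it ranged from 0.091 to 0.22 with a median of 0.17, and no tumour overlapped the first set. After GC correction the 2 designs still did not overlap, at −0.071 to 0.016 and 0.032 to 0.11. On the 39 probes of the region that both designs carry the 2 designs did overlap as processed, without GC correction, with medians of 0.11 and 0.12.

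The order of the tumours by chromosome level was not their order by excess, which can be compared only within an array design. On the first design the GC-corrected excess of 608 lesion 1 was −0.071, the lowest of all, and its Myc region was the lowest of its 11 windows. In 608 lesion 6 the excess was 0.013, and in 612 lesion 2 it was 0.0058, where the highest of this design was 0.016, in 1770 lesion 4. On the second design it was 0.07 in 2064 lesion 1, 0.086 in 2088 lesion 1 and 0.11 in 608 lesion 3. The Myc region was the highest window in these last 3 tumours, and also in 612 lesion 5, 1109 and 2094 lesion 2, whose chromosome level was 0.046, −0.022 and 0.017. All 6 were measured on the second design. As processed, the Myc region was the highest window in 0 of 21 tumours.

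Nearer to Myc the excess became smaller and changed sign. With 2.5 Mb on either side it was 0.014 ± 0.032 (SD, n = 14), and with 1 Mb on either side −0.079 ± 0.089 (SD, n = 14). In steps of 1 Mb, the stretch from 2 to 1 Mb before Myc lay above the chromosome by a median of 0.18 after GC correction, while the stretch from 1 to 2 Mb after it lay 0.49 below, and this low stretch was deepest on slides 2 and 3 (medians of −0.58 and −0.52, against −0.13 on slide 1). These steps rest on few probes, as few as 7 on an array for the low one. Only 5 probes of the first design and 2 of the second lay within 100 kb of Myc.

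**Figure D3:**
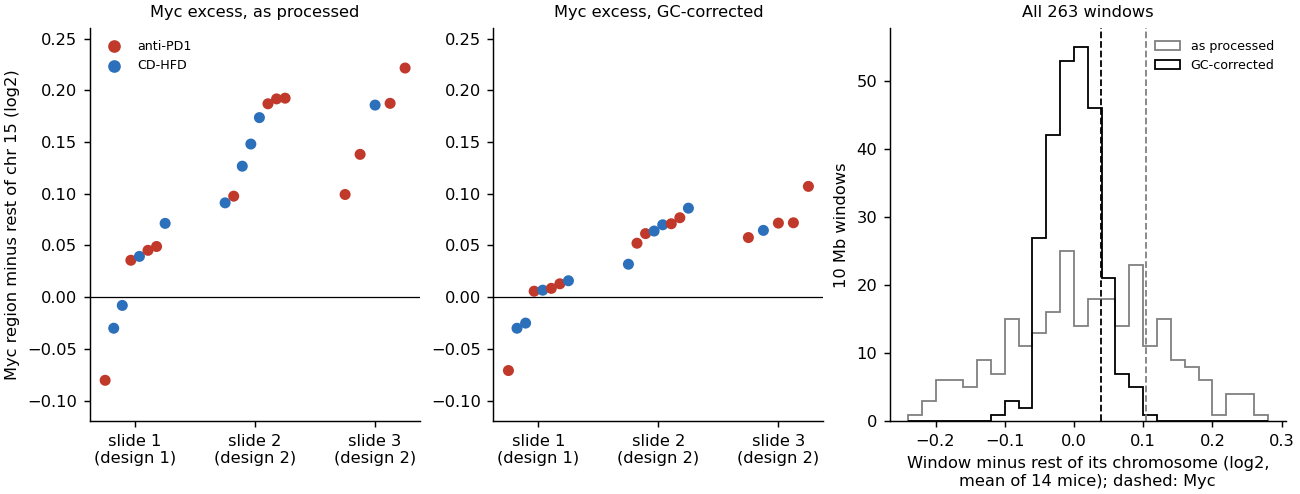
Myc excess of each tumour (mean of the 5 Mb on either side of Myc minus the rest of chromosome 15, log2, y axis) by slide and treatment group, as processed and GC-corrected, and the distribution of the same value, averaged over mice, over 263 windows of 10 Mb with the Myc region as dashed lines. The tumours of slide 1 lie below those of slides 2 and 3, and the dashed lines at 0.10 and 0.039 lie inside the distribution.

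Single probes showed how uneven the neighbourhood was. The Myc probe had a log2 ratio of −0.36 in 2097 lesion 2, a median of 0.32 and 1.38 in 608 lesion 1, and it was at or above 0.2 in 12 of 21 tumours; its GC-corrected median was 0.18. The probe before Myc had a lowest value of −0.03, a median of 0.51 and a highest value of 1.03. The probe after it, in Pvt1, ranged from −0.88 over a median of −0.41 to 0.21. The probe before Myc was above the probe after it in all 21 tumours, and their medians differed by more than the chromosome level of any tumour.

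Because single probes scattered so widely, genes were measured by all probes from 500 kb before to 500 kb after those named for them, with at least 10 probes on every array. In this span the Myc gene region had a lowest value of −0.25, a median of −0.073 and a highest of 0.38. It was at or above 0.2 in 3 tumours, namely 608 lesion 6 (0.38), 608 lesion 1 (0.36) and 2064 lesion 1 (0.24), the same ones that led for the chromosome. The next were 612 lesion 2 at 0.17 and 2088 lesion 1 at 0.11. In 608 lesion 3 it was −0.0031, below the level of its chromosome but the highest on slide 3, where the other 4 tumours ranged from −0.20 to −0.12. This region, too, followed the array design: the 5 lowest tumours of slide 1 ranged from −0.073 to 0.0086, and the 6 lowest of slide 2 from −0.25 to −0.13.

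Pvt1 shares most of these probes and had 0.41, 0.33 and 0.23 in the same 3 tumours. Further out, Trib1, a pseudokinase that marks transcription factors for degradation in the liver, had a median of 0.037 (0.12 after GC correction), and Sqle, the squalene epoxidase of cholesterol synthesis, 0.093 (0.13). Atad2, a chromatin-binding ATPase, had 0.10 (0.12), and Nsmce2, a SUMO ligase of DNA repair, 0.12 (0.13). On the other side of Myc, Adcy8, an adenylyl cyclase, had the highest median of the 15 measured genes of the neighbourhood as processed (0.24), and Asap1, a GTPase-activating protein of the Arf family, the lowest (−0.15). All of these genes lie within 5 Mb of Myc, so the spread between them was wider than the excess of the region. After GC correction Adcy8 had 0.17 and Asap1 −0.13, and the highest median was that of St3gal1, a sialyltransferase gene at the edge of the region (0.20).

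The growth genes elsewhere on the chromosome sorted by the side of the step on which they lay. Angpt1, the ligand of the vessel receptor Tie2, had the highest median (0.39), and Rspo2, a secreted amplifier of Wnt signalling, had 0.30. Rad21, a subunit of cohesin, had 0.37, and Pabpc1, the poly(A)-binding protein, 0.24. At the step and beyond it, Ptk2, the focal adhesion kinase, had −0.20, Pdgfb, a growth factor for stromal cells, −0.046, and Hsf1, the heat shock regulator, −0.21. After GC correction these medians were 0.17 for Angpt1, 0.061 for Rspo2, 0.22 for Rad21, 0.27 for Pabpc1, −0.054 for Ptk2, 0.12 for Pdgfb and −0.021 for Hsf1. Part of the contrast across the step was thus gone after the correction.

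The genes of liver metabolism had a like pattern. Ghr, the growth hormone receptor, had a lowest value of 0.056, a median of 0.33 and a highest of 0.64, and after GC correction a median of 0.12. Dgat1, which completes triglyceride synthesis, had medians of −0.20 and −0.01. Ppara, the receptor that induces fatty acid oxidation, had medians of 0.039 and 0.14, and Pnpla3, a lipid droplet protein tied to fatty liver, −0.093 and 0.093. In the tumour with the highest chromosome level, 2064 lesion 1, the GC-corrected values were 0.48 for Ghr, 0.63 for Ppara and 0.55 for Pnpla3. In lesion 2 of the same mouse they were 0.19, 0.33 and 0.11.

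Of the 7 genes known as tumour suppressors, 2 had a median above 0 as processed and 5 after GC correction. Arid2, a subunit of the PBAF chromatin remodeller that is mutated in human liver cancer, had GC-corrected values from 0.059 over a median of 0.21 to 0.67, the highest in 2064 lesion 1. Its 3 highest tumours as processed were 2064 lesion 1 (0.69), 608 lesion 1 (0.58) and 608 lesion 6 (0.50). Dab2, an endocytic adaptor, had a median of 0.22 (0.11 after GC correction) and Hdac7, a histone deacetylase, −0.19 (−0.10). Arid2 was above 0 in every tumour, also in those without a raised chromosome.

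The other members of the Myc network lie on other chromosomes. Mycn, the close relative of Myc on chromosome 12, had the highest median of the network (0.23), but its values separated by array design: from −0.78 to −0.096 on slide 1 and from 0.011 to 0.54 on slides 2 and 3. The GC-corrected median of Mycn was 0.12. Max, also on chromosome 12, had a median of −0.23 (−0.094 after GC correction). Its lowest GC-corrected values were −0.47 in 608 lesion 6, −0.39 in 2064 lesion 1 and −0.38 in 608 lesion 1. These tumours, which led for chromosome 15, were also the lowest of their slides in Mycn. The level of chromosome 12 was 0.2 or more below 0 in 3 tumours. Zbtb17, a zinc finger protein through which Myc represses genes, had the lowest median of the network (−0.29), and −0.015 after GC correction.

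**Figure D4:**
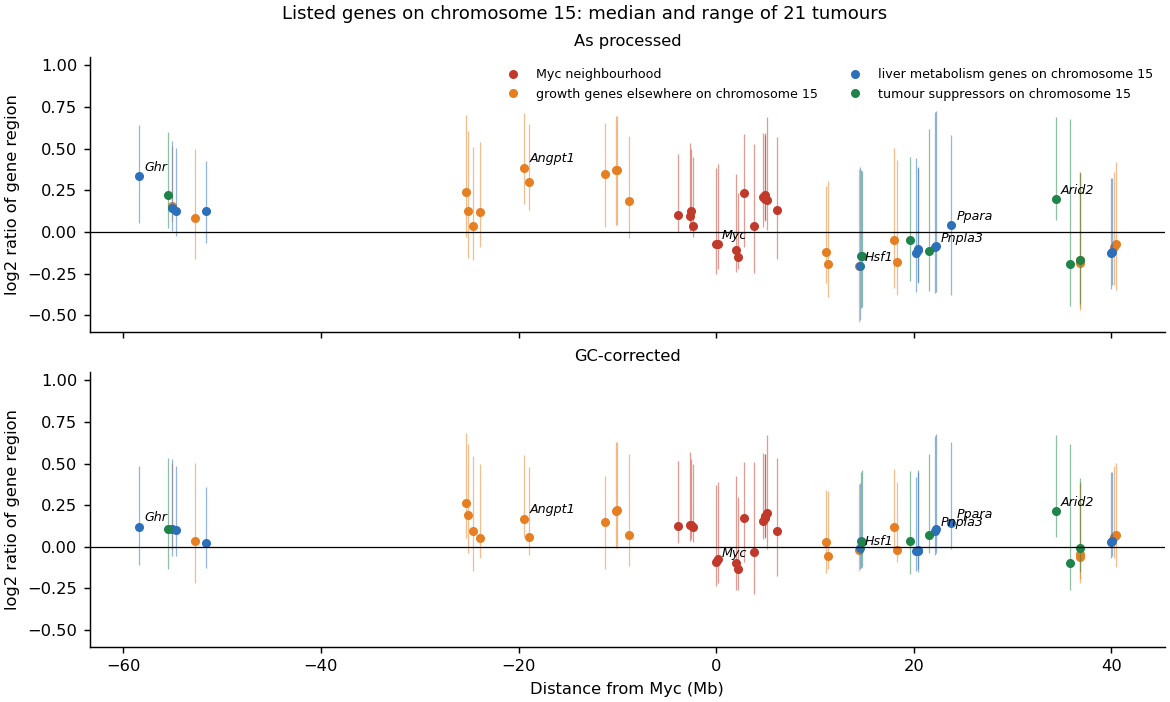
Median (point) and range (line) over the 21 tumours of the log2 ratio of each listed gene region on chromosome 15 (y axis) against its distance from Myc in Mb (x axis), as processed and GC-corrected, coloured by gene list. As processed, Angpt1 (0.39) and Ghr (0.33) stand high and Hsf1 (−0.21) and Dgat1 (−0.20) low, and after GC correction these medians lie between −0.021 and 0.17.

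Gains of chromosome 15 came in different company. In 2064 lesion 1 the GC-corrected level was also high on chromosomes 1 (0.43), 10 (0.37) and 16 (0.40) and low on chromosome 6 (−0.30). In 608 lesion 6 it was high on chromosomes 1 (0.32) and 10 (0.30), at 0.027 on chromosome 16 and at −0.15 on chromosome 6. In 608 lesion 1 these 4 chromosomes lay between 0.045 and 0.059, so its chromosome 15 was raised without any of them. It was not the only change of that tumour: of its 19 autosomes, 2 were at or above 0.2, chromosome 15 included, and 2 were 0.2 or more below 0.

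The tumours at intermediate levels differed among themselves as well. In 2088 lesion 1 chromosome 1 had 0.41 and chromosome 6 had 0.18. In 612 lesion 2 chromosome 1 had 0.22 and chromosome 10 had −0.18. In 608 lesion 3 chromosome 16 had 0.23 and chromosome 1 had 0.041.

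Among the mice with several lesions, mouse 608 was the one in which every lesion was among the 6 tumours with the highest level. Its 3 lesions had 0.37, 0.20 and 0.40 after GC correction, with the other chromosomes differing between them as above. In mouse 2064 lesion 1 had 0.41 and lesion 2 had 0.068. In mouse 612 lesion 2 had 0.17 and lesion 5 had 0.046. The 3 lesions of mouse 2094 had 0.059, 0.017 and 0.017, and both lesions of mouse 1770 were at or below 0.042. How far lesions of 1 mouse share an origin was not tested.

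**Figure D5:**
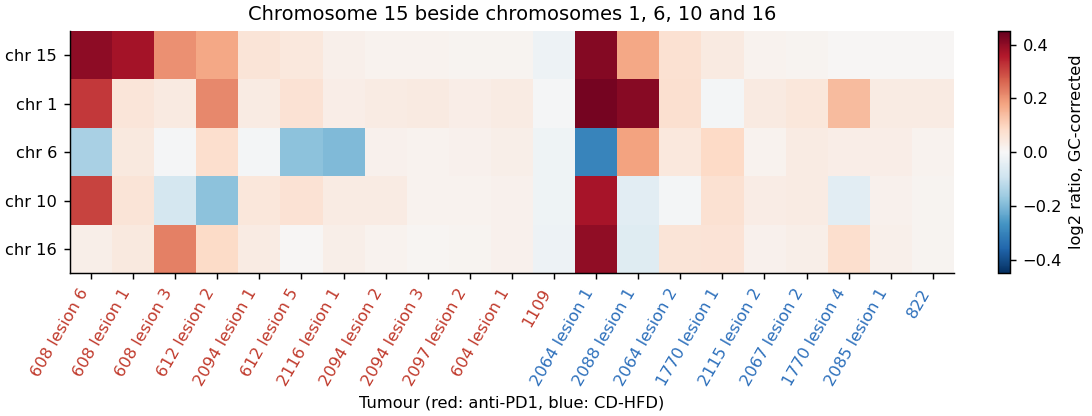
GC-corrected level (log2 ratio, colour scale) of chromosome 15 and of chromosomes 1, 6, 10 and 16 in each of the 21 tumours, with tumour names in red for anti-PD1 and blue for CD-HFD. 2064 lesion 1 is high on chromosomes 15, 1, 10 and 16, and 608 lesion 1 on chromosome 15 alone of the 5.

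Chromosome 15 was not found to differ between the tumours of anti-PD1-treated mice and those of mice on CD-HFD alone. Averaged over mice, its level was 0.034 ± 0.13 (SD, n = 7) with anti-PD1 and 0.039 ± 0.098 (SD, n = 7) with CD-HFD. The linear model of limma over all 21 tumours, with the mouse as a random block, gave a difference of 0.021 (standard error 0.058, 95% confidence interval −0.097 to 0.14, adjusted p = 0.91 over 20 chromosomes). In that fit 0% of the chromosomes were called at an adjusted p of 0.05. The correlation within mice, a single value pooled over the 20 chromosomes, was estimated at −0.0092, so the block made next to no allowance for lesions of the same mouse. It is not a value of chromosome 15 itself. The groups overlapped over nearly their whole range.

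The Myc region had the same result. Its level was 0.14 ± 0.10 (SD, n = 7) with anti-PD1 and 0.12 ± 0.14 (SD, n = 7) with CD-HFD, a difference by limma of 0.046 (standard error 0.058, 95% confidence interval −0.072 to 0.16, adjusted p = 0.99 over 263 windows). The excess over the rest of the chromosome was 0.12 ± 0.060 (SD, n = 7) and 0.090 ± 0.074 (SD, n = 7), a difference by limma of 0.024 (standard error 0.033, 95% confidence interval −0.044 to 0.093, adjusted p = 0.99). The correlation within mice, again pooled over all 263 windows, was −0.042 in the fit of window levels and −0.16 in that of the excess. With every tumour taken as independent the standard error of the excess difference was 0.035. These fits left out the slide, which the excess followed. With slide as a fixed block the excess difference by limma was 0.0034 (standard error 0.016). The sign of the level difference turned without mouse 608 (−0.055), without its lesion 1 alone (−0.0070) and when each mouse entered as its mean (−0.0057).

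Within slides the level difference had opposite signs. On slide 1 it was 0.24 (limma, adjusted p = 0.20), with lesions 1 and 6 of mouse 608 on the anti-PD1 side. On slide 2 it was −0.19 (limma, adjusted p = 0.057), with 2064 lesion 1 on the CD-HFD side. Slide 3 held 1 CD-HFD tumour and gives no value of its own. With mouse means the same differences were 0.18 (adjusted p = 0.60) and −0.14 (adjusted p = 0.33) by limma.

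Of the 11 windows of 10 Mb of chromosome 15, set against the rest of the chromosome, 0 passed an adjusted or an unadjusted p of 0.05 by limma, against 0.76% of all 263 windows at the unadjusted threshold. Finer scales gave no call on chromosome 15 either. Of its 1 Mb windows, 0 of 91 passed an adjusted p of 0.05 and 0 an unadjusted p of 0.05, against 0.9% of all 2223 windows at the unadjusted threshold. Of the probes on both designs, 0 of 523 passed after adjustment, and 33 (6.31%) had an unadjusted p under 0.05, against 7.82% of all 12703. Of the gene regions, 0 of 696 passed, and 1 had an unadjusted p under 0.05, against 0.634% of all 17815.

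In the gene lists, 0 of 15 tested genes of the Myc neighbourhood were called higher or lower with anti-PD1 by limma, with a median difference of 0.042 (all gene regions −0.012). All 15 differences were above 0, from 0.0052 to 0.082, against 7065 of all 17815 gene regions. Neighbouring gene regions share probes, so these 15 are not independent. Fam84b and Khdrbs3 had too few probes. For 21 growth genes elsewhere on the chromosome, 14 of 15 genes of liver metabolism (all but Gpihbp1), 7 tumour suppressors and 19 genes of the Myc network, 0 were called, 0 had an unadjusted p under 0.05, and the median differences were 0.00020, 0.012, −0.0016 and −0.0053. The Myc gene region itself differed by 0.0072 (standard error 0.077, limma, adjusted p = 1.0). The gained share of the chromosome was 18.4% ± 31.2 (SD, n = 7) with anti-PD1 and 17.2% ± 30.3 (SD, n = 7) with CD-HFD, a difference of 1.19 points (2-sided exact permutation test over 3432 splits of the mice, p = 1.0).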

How the data were processed

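Every array of the 21 had the tumour in Cy3 and the reference in Cy5, with dyes never swapped, and ratios have the tumour as numerator. The authors deposited the scanner output of Feature Extraction 11.0.1.1 for each array, with processed signal intensities of both channels after background subtraction and dye normalization, and raw mean and background intensities. They also deposited loess-normalized log2 ratios, used as an alternative. The sources used here name no further processing of this assay.

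The log2 ratio of the processed intensities was centred on the median of each array. Controls were removed, as were 88 to 228 outlier-flagged spots an array, but saturated spots stayed in, and replicate spots of a probe were averaged. Chromosome levels, windows of 10 Mb (at least 50 probes on every array) and 1 Mb (at least 5), probes of both designs and gene regions were fitted over the whole table by limma 3.58.1 (R 4.3.3; lmFit, eBayes, and duplicateCorrelation on the mouse), 2-sided, with Benjamini-Hochberg adjustment. Segments came from optimal partitioning by least squares (at least 10 probes a segment, and a cost for each break of 3 noise variances multiplied by the log of the probe number) in Python 3.11.15 with numpy 2.4.6. For GC content and annotation, probe sequences were matched exactly to GRCm38 (99.9% of 96336 at a single place), since no mm9 genome was used here. Positions are those of the files. The steps were tested on simulated data.

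The members, gene lists and tests were chosen with earlier results of these data known. Genes were named by a rule that put Myc first, counted all genes of the 5 lists and gave examples from each. The alternatives were the loess-normalized ratios, normexp with an offset of 50, only spots well above background, only probes of both designs, GC correction, centring outside chromosome 15, medians, narrower Myc regions, other thresholds and penalties, tumours as independent, mouse means, slide as a block, single slides, array weights and each mouse left out. Mouse means within a slide, single array designs and leaving out 608 lesion 1 were chosen after seeing the data.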

Additional observations from a re-analysis of the deposited data

Results flagged for a closer look

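Mouse 608 stood apart among the 7 anti-PD1 mice, on the mean of its 3 lesions. Its chromosome 15 level was 0.301, against 0.084 in the next mouse, and 0.327 after GC correction, against 0.11. Its Myc region was at 0.359, against 0.16 in the next mouse, and at 0.342 after GC correction. Its gained share of the chromosome was 84.5%, against 28.5%. In these 5 of 14 values looked at, the gap to the next mouse was more than 0.568 of the range of the group. That is Dixon's 95% critical value for 7 mice, which normally distributed values pass by chance in about 1 group of 20. The gained share is bounded, so this rate does not hold for it. The comparison is a description and no test, since the chromosome was chosen by these levels, and the 5 values overlap in the probes they use. Lesion 1 of this mouse also had the lowest share of spots well above background of all arrays, and the part of this in its level was not tested. Its level was 0.38 as processed, 0.34 with only spots well above background, and 0.10 with normexp, next to 0.079 in 612 lesion 2.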

How the results depend on the processing

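No paired analysis was possible because the labels give no replicate numbers that the groups share. Among the features of chromosome 15 fitted under each alternative, none passed an adjusted p of 0.05 between the treatment groups except in the blocked fit within slide 1 (array weights called 6 of 263 windows of 10 Mb, 0 of them on chromosome 15). The blocked fit within slide 1 gave, by limma, an excess difference of −0.032 (adjusted p = 0.046), with a block correlation of −0.93. It called 118 of 263 windows set against the rest of their chromosome, 7 of the 11 on chromosome 15 among them. Of all 2223 windows of 1 Mb it called 2, of which 1 lay on chromosome 15. Of all 17815 gene regions it called 2992, with 686 of the 696 on chromosome 15, and 60 listed genes. Mouse means on that slide (chosen after seeing the data) gave an excess difference of 0.0044. They called 0 windows of 1 Mb of chromosome 15 and 0 listed genes. The level difference was −0.0057 with mouse means, −0.19 within slide 2, −0.14 with mouse means within slide 2 and −0.0070 without 608 lesion 1, and −0.055 (without mouse 608) to 0.066 with 1 mouse left out. The Myc region difference was −0.0014 with 1 Mb on either side, −0.15 within slide 2 and −0.11 with mouse means there, 0.26 within slide 1 (adjusted p = 0.056) and 0.18 with mouse means there, 0.077 with array weights (adjusted p = 0.072), and −0.017 (without mouse 608) to 0.11 with 1 mouse left out. The excess difference was −0.0031 on the probes of both designs and −0.023 with 1 Mb on either side, and −0.0023 (without mouse 2094) to 0.045 with 1 mouse left out. The mean excess was 0.014 with 2.5 Mb, −0.079 with 1 Mb, 0.020 on the first design alone and 0.097 to 0.11 with 1 mouse left out. Of the tumours, 1 reached the threshold with normexp, 6 at a threshold of 0.1, and 1 (without mouse 608) to 3 with 1 mouse left out. For the gained share the difference was −2.09 points with normexp, −32.3 within slide 2, 52.35 within slide 1 and −9.83 (without mouse 608) to 10.6 with 1 mouse left out. The causes were not tested. The median level over tumours moved between −0.031 and 0.022 over its 22 alternatives. Single probes had a noise of 0.41 to 0.68, and the size of change over few probes at Myc that could be found was not tested.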
